A study of Homo sapiens with 19 samples.

Results

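Expression of 47 genes of hepatic fatty acid metabolism was followed in HepG2 cells in which INO80 or MCRS1, both parts of the INO80 chromatin remodelling complex, had been knocked down. The genes were chosen by symbol as a module of lipogenesis and fatty acid oxidation, and all 47 of them were present among the 34825 gene symbols of each of the 2 expression tables. They comprised 18 genes of fatty acid and triglyceride synthesis, 10 genes of lipid handling (droplets, lipolysis, export, activation and binding) and 19 genes of oxidation, ketone body formation and the fasting response. Synthesis and oxidation genes are described apart, and groups were compared only within a table.

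HepG2 is a human liver cancer cell line, and all libraries came from this single line. In the INO80 experiment cells received 50 nM of a non-targeting control siRNA (NTG), of siINO80#1 or of siINO80#2, with 3 libraries each and no drug. In the drug experiment cells were kept in DMSO or in EPZ-6438, an inhibitor of the histone methyltransferase EZH2 (both labelled 1 uM), from 3 days before they were transfected with 50 nM NTG or siMCRS1. There were 2 libraries of NTG in DMSO, 3 of siMCRS1 in DMSO, 3 of NTG in EPZ-6438 and 2 of siMCRS1 in EPZ-6438. RNA was collected 72 h after transfection in both. Single libraries are named by treatment, siRNA and replicate, as in DMSO_NTG replicate 1. The labels name replicates without saying whether they were separate cultures, so p-values measure only the spread between these libraries, which may be technical.

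Hepatocytes make fatty acids from cytosolic acetyl-CoA, a programme switched on by the transcription factors SREBP1c (encoded by SREBF1) and ChREBP (MLXIPL), and esterify them into triglycerides that are stored in droplets or exported in lipoproteins. In fasting the nuclear receptor PPARA turns on the opposite programme. Acyl groups then enter mitochondria by the carnitine shuttle, are shortened by beta-oxidation and leave in part as ketone bodies. The INO80 complex moves and restructures nucleosomes at promoters, where MCRS1 is one of its accessory subunits.

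The tables held read counts divided by 1 factor per library, called normalized counts here. Whole reads recovered from them numbered 17093574 to 25369547 per library of the INO80 table and 26038505 to 47397233 per library of the drug table. INO80 itself read 1278, 1338 and 1175 normalized counts in the NTG libraries, 576, 639 and 609 with siINO80#1 and 439.8, 456 and 483 with siINO80#2. MCRS1 read 1283 to 1577 with NTG in DMSO and 1201 to 1533 with NTG in EPZ-6438, against 83.7 to 140.2 and 90.5 to 126 with siMCRS1. Each targeted transcript was low in every library labelled as its knockdown. INO80 was also lower with siMCRS1, at -0.27 ± 0.10 (adjusted p = 0.0387) in DMSO and -0.35 ± 0.10 (adjusted p = 0.00966) in EPZ-6438. All 9 hepatocyte markers examined were present, ALB among them, and they summed to 572893 to 1296170 normalized counts per library. Markers of leukocytes, endothelium, fibroblasts and adipocytes (14 genes) summed to 1309 to 2407, and none of them was at 0 in all libraries of a group.

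Genes whose mean in a table reached 10 normalized counts were tested with limma on log2(normalized counts + 1), and a gene was called higher or lower at a Benjamini-Hochberg adjusted p under 0.05 over all genes tested. Of the 47 genes 44 were tested in each table. FGF21, ACADL and PDK4 were below the filter. Fold changes are differences on that log2 scale, given with their standard errors (SE).

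Most oxidation genes were lower after either knockdown, and none was called higher. With siINO80#1, 13 of 16 tested oxidation genes were called lower (81.2%), where 20.8% of all 14034 tested genes were called lower and 20.7% higher. With siINO80#2 it was 14 of 16, against 28.4% lower and 26.6% higher of all genes. With siMCRS1 it was 13 of 16 in DMSO and 12 of 16 in EPZ-6438, against 24.6% and 26.9% of all 14312 tested genes called lower and 23.1% and 26.8% called higher. Of the 13 in DMSO, ACAA1, ACAA2, ACADVL and HADHB lost their calls without DMSO_siMCRS1 replicate 3. Without DMSO_NTG replicate 1 their log2 fold changes were -0.31, -0.26, -0.58 and -0.25. Median log2 fold changes of the oxidation genes were -0.70 and -0.95 with the INO80 siRNAs and -0.79 and -1.05 with siMCRS1 in DMSO and EPZ-6438, where the median of all genes was 0.00, 0.00, 0.00 and 0.01. Both INO80 siRNAs were compared with the same NTG libraries, so their results are given side by side and not counted as separate support. In bulk RNA of this kind, fewer cells of a type and less RNA per cell cannot be told apart.

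**Figure D1:**
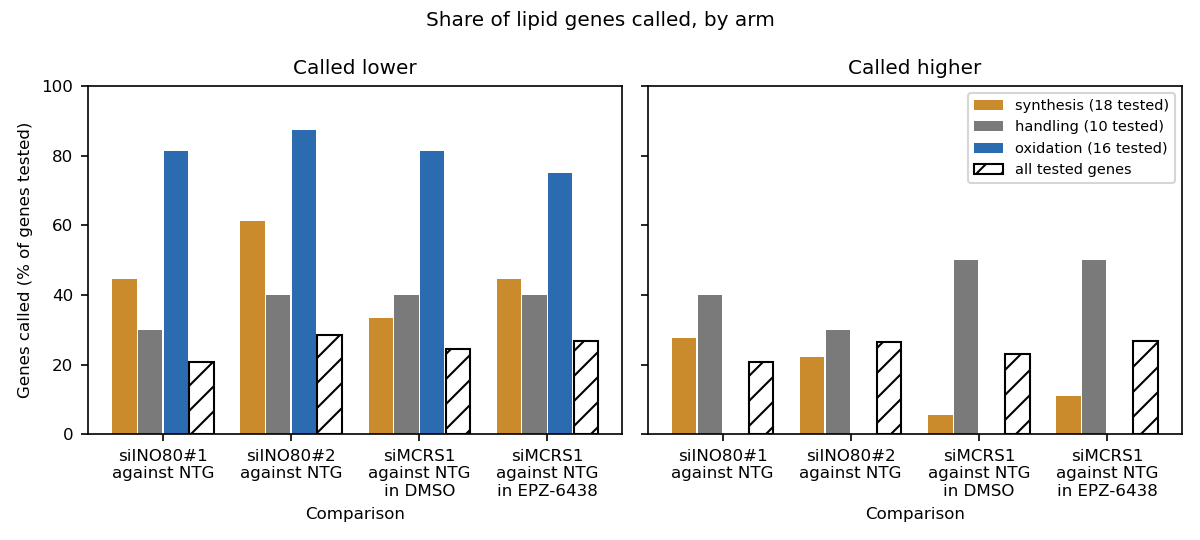
Percentage of tested genes called lower (left) and higher (right) at adjusted p under 0.05 in 4 knockdown comparisons, by arm, with all tested genes of the table as the hatched bar. Between 75.0% and 87.5% of the 16 oxidation genes were called lower and none higher, while handling genes were called in both directions.

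Synthesis genes were called in both directions. With siINO80#1, 5 of 18 were called higher and 8 lower, and with siINO80#2 4 higher and 11 lower. With siMCRS1 there were 1 higher and 6 lower in DMSO and 2 higher and 8 lower in EPZ-6438. Their median log2 fold changes were -0.04, -0.31, -0.22 and -0.22 in the same order. As shares of the 18, the higher calls were 27.8%, 22.2%, 5.56% and 11.1%, where all genes had 20.7%, 26.6%, 23.1% and 26.8%, and the lower calls 44.4%, 61.1%, 33.3% and 44.4%, where all genes had 20.8%, 28.4%, 24.6% and 26.9%. Of the 10 handling genes, 4 and 3 were called higher and 3 and 4 lower with the INO80 siRNAs, and 5 higher and 4 lower with siMCRS1 in each treatment. Over all members the counts were 9 higher and 24 lower with siINO80#1, 7 and 29 with siINO80#2, 6 and 23 with siMCRS1 in DMSO, and 7 and 24 in EPZ-6438. The count of 23 lower was smaller without DMSO_NTG replicate 1, a fit that leaves the control group without a replicate and so weakens the test of every gene. Scaling every library to 1 total cut the higher calls to 4 with siINO80#2 and to 3 with siMCRS1 in DMSO. Those of all genes fell as well, from 3733 to 2856 and from 3307 to 1894.

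**Figure D2:**
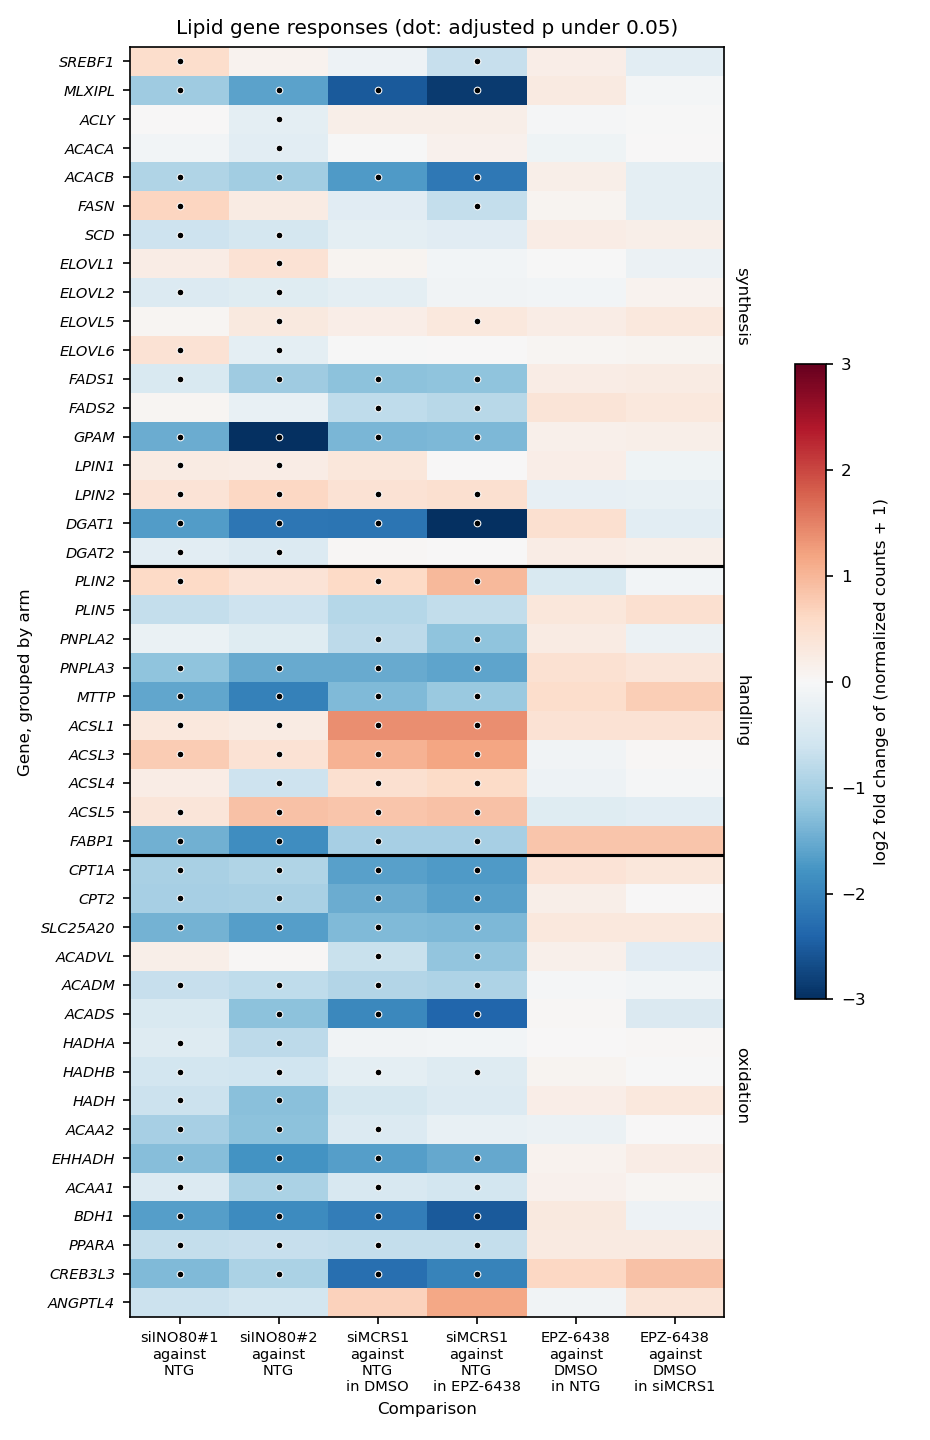
Log2 fold changes of the 44 tested genes (rows, in 3 blocks for synthesis, handling and oxidation) in 6 comparisons (columns), from blue (lower) to red (higher), with a dot where the adjusted p was under 0.05. The oxidation block is blue in all 4 knockdown columns apart from ACADVL with the INO80 siRNAs and ANGPTL4 with siMCRS1, and the EPZ-6438 columns hold no dot.

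Calls on small changes depended on the scaling. Total normalized counts were 37296662 to 40177962 in the siMCRS1 libraries and 31332572 to 33672033 in the NTG libraries of the drug table, without overlap. In the INO80 table they were 18837086 to 19132334 with NTG and 19428963 to 22094330 with the INO80 siRNAs, also without overlap. Setting all totals equal shifted the median of all genes to -0.23 with siMCRS1 in either treatment, to -0.08 with siINO80#1 and to -0.11 with siINO80#2. The changes below are relative to the scaling as deposited.

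Hepatocyte markers had few calls except with siINO80#2. HNF4A, the nuclear receptor that defines the hepatocyte programme, was lower in all 4 knockdown comparisons, at -0.45 ± 0.07, -1.02 ± 0.07, -0.55 ± 0.16 and -0.55 ± 0.16. Of the 9 hepatocyte markers 1 was lower with siINO80#1, 5 with siINO80#2 (ALB, APOA1, TTR, HNF4A and TF), and 1 with siMCRS1 in each treatment (HNF4A), where FOXA2 in DMSO and ALB in EPZ-6438 were higher. Of all genes 20.8%, 28.4%, 24.6% and 26.9% were called lower in the 4 comparisons. With siMCRS1 23.1% and 26.8% of all genes were called higher in DMSO and EPZ-6438. The summed level of the list was 710784 to 874746 with NTG, 814771 to 1005960 with siINO80#1 and 572893 to 787250 with siINO80#2. In the drug table it was 936954 to 1073750 and 1028900 to 1138970 with NTG in DMSO and EPZ-6438, and 1000010 to 1209880 and 1170870 to 1296170 with siMCRS1. The 4 adipocyte markers summed to 65.7 to 97.9 with NTG, 30.6 to 44.1 with siINO80#1 and 21.3 to 53.8 with siINO80#2, and to 83.3 to 178 with NTG and 26.4 to 39.1 with siMCRS1, led by PLIN1, a droplet coat protein, at -2.36 ± 0.38, -2.08 ± 0.38, -2.10 ± 0.26 and -2.47 ± 0.26. The 4 fibroblast markers summed to 194 to 362 with NTG and 551 to 907 with siMCRS1 in the drug table, and to 256 to 281 with NTG, 461 to 485 with siINO80#1 and 286 to 311 with siINO80#2. The 3 leukocyte markers summed to 930 to 1634 with NTG and 616 to 868 with siMCRS1 in the drug table and to 715 to 1411 in the INO80 table, and the 3 endothelial markers to 176 to 340 over all libraries. The part of these markers in the lipid gene results was not tested.

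The carnitine shuttle fell as a whole in all 4 knockdown comparisons. CPT1A, the outer-membrane palmitoyltransferase that controls the entry of long-chain acyl groups, read 1224, 1078 and 1566 with NTG, 604, 563 and 800.2 with siINO80#1 and 693, 613 and 745 with siINO80#2. All 6 knockdown libraries lay below the lowest NTG library, with log2 fold changes of -0.97 ± 0.16 (adjusted p = 0.000655) and -0.90 ± 0.16 (adjusted p = 0.000631). In the drug table CPT1A read 1593 and 1433 with NTG in DMSO, 559, 438 and 468 with siMCRS1 in DMSO, 2150.4, 1999 and 1923 with NTG in EPZ-6438 and 706 and 539.7 with siMCRS1 in EPZ-6438. No siMCRS1 library came near its controls in either treatment, and the changes were -1.63 ± 0.14 (adjusted p = 2.39e-05) in DMSO and -1.71 ± 0.14 (adjusted p = 1.16e-05) in EPZ-6438. CPT2, which rebuilds the acyl-CoA on the inner membrane, had means of 672 ± 51.0 with NTG, 338 ± 47.4 with siINO80#1 and 344 ± 41.6 with siINO80#2 (SD, n = 3), and was lower with both (adjusted p = 0.000134 and 8.22e-05). Its drug table values were 1204 and 882 with NTG in DMSO, 434, 393 and 292 with siMCRS1 in DMSO, 1229, 1206 and 1065 with NTG in EPZ-6438 and 415 and 336 with siMCRS1 in EPZ-6438, and the siMCRS1 changes were -1.48 ± 0.19 (adjusted p = 0.000166) and -1.64 ± 0.19 (adjusted p = 6.14e-05). SLC25A20, the carrier that exchanges acylcarnitine for carnitine, read 492, 467 and 553 with NTG, 204, 152 and 212 with siINO80#1 and 147, 186 and 147 with siINO80#2. No knockdown library reached the lowest of the controls, and the changes were -1.42 ± 0.15 (adjusted p = 4.18e-05) and -1.65 ± 0.15 (adjusted p = 7.28e-06). With siMCRS1 it was lower as well, reading 725 and 640.4 with NTG in DMSO, 332, 302 and 198 with siMCRS1 in DMSO, 874, 889 and 805 with NTG in EPZ-6438 and 379 and 297 with siMCRS1 in EPZ-6438, with changes of -1.33 ± 0.21 (adjusted p = 0.000462) and -1.35 ± 0.21 (adjusted p = 0.000312). CPT2 overlaps CZIB in the annotation, and the sources used here do not say if reads were counted by strand, which makes genes with an overlapping neighbour uncertain. Among the genes described below, HADHA overlaps GAREM2 and ACACA overlaps C17orf78. Other overlaps are given with their genes. The spans overlap in the annotation, and whether the transcripts share bases was not examined.

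**Figure D3:**
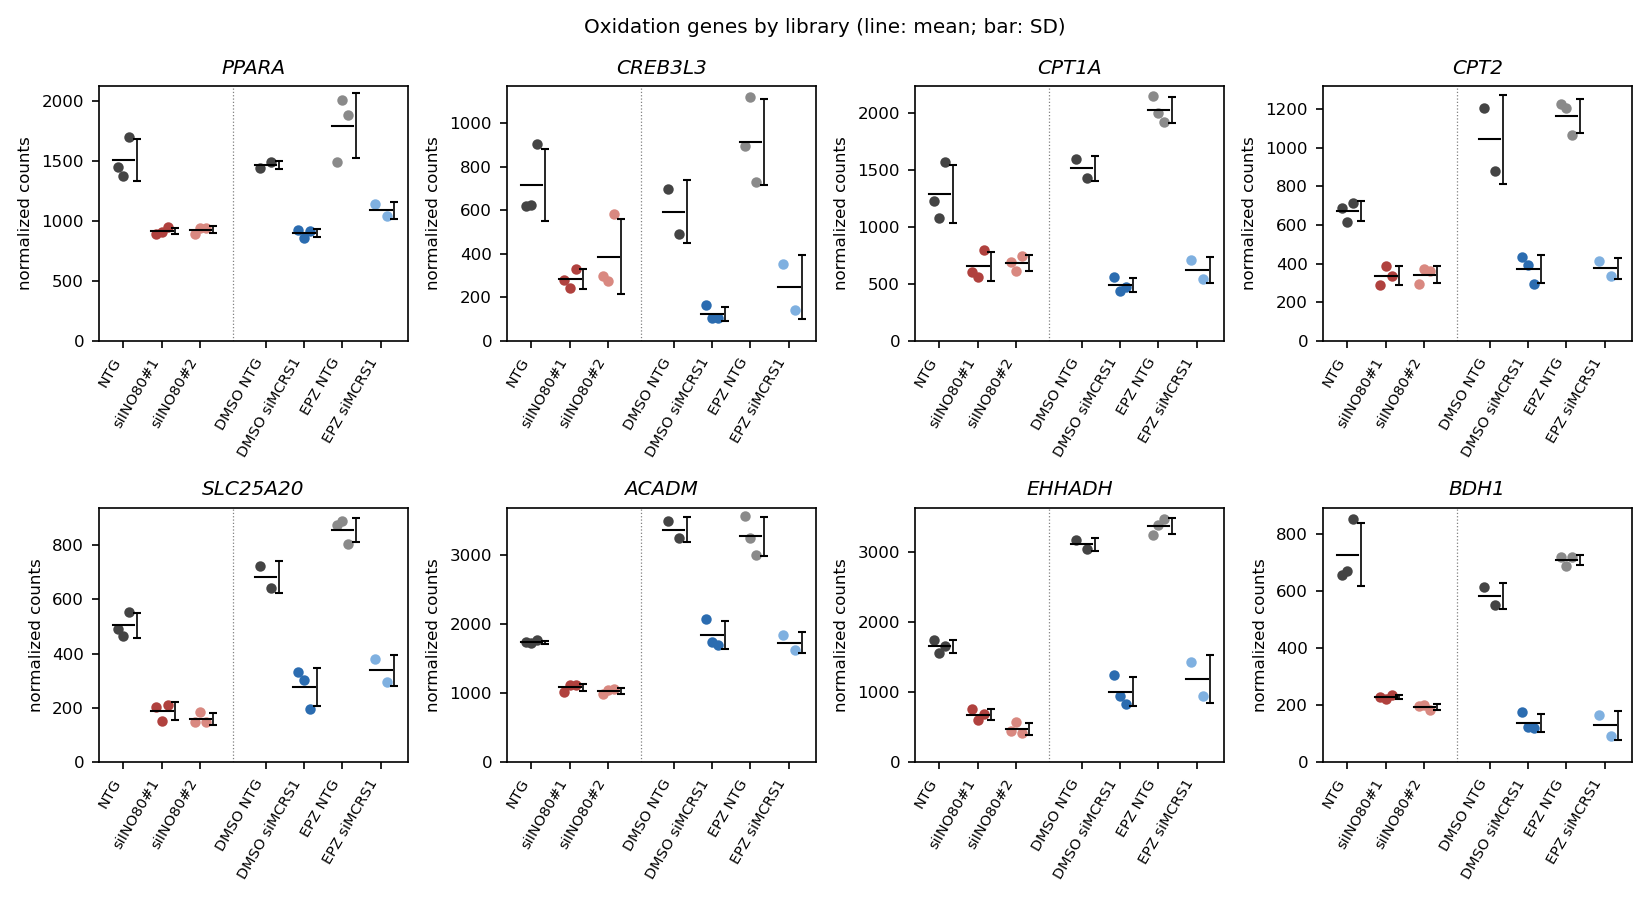
Normalized counts of 8 oxidation genes in every library (points, linear axes from 0), with the mean (line) and SD (bar) of each group; the dotted line separates the tables, which were normalized separately. In each of these 8 genes, which were picked for display, all knockdown libraries sit below all NTG libraries of the same table and treatment. ACADVL, HADHA and ANGPTL4 are not among them, and how often all genes separated in this way is not given.

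Mitochondrial beta-oxidation changed enzyme by enzyme. ACADM, the medium-chain acyl-CoA dehydrogenase, was lower in all 4 comparisons, at -0.68 ± 0.07, -0.76 ± 0.07, -0.88 ± 0.12 and -0.92 ± 0.12 for siINO80#1, siINO80#2 and siMCRS1 in DMSO and EPZ-6438. ACADVL, the very-long-chain enzyme, was called lower with siMCRS1 and not with the INO80 siRNAs. It read 3459 and 3025 with NTG in DMSO, 2512, 1636 and 2031 with siMCRS1 in DMSO, 3780.5, 3490.3 and 3570.1 with NTG in EPZ-6438 and 2097 and 1219.5 with siMCRS1 in EPZ-6438, with changes of -0.67 ± 0.22 (adjusted p = 0.0245) in DMSO, a call that was lost without either DMSO_NTG library (adjusted p = 0.145 and 0.0562), and -1.17 ± 0.22 (adjusted p = 0.000998) in EPZ-6438. With the INO80 siRNAs the ACADVL intervals were -0.03 to 0.39 and -0.17 to 0.25 (95%), so a decrease of the siMCRS1 size lay outside them. ACADVL overlaps DLG4.

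ACADS, the short-chain enzyme, had the steepest fall of the mitochondrial beta-oxidation enzymes with siMCRS1. It read 671 and 517 with NTG in DMSO, 207, 132 and 133 with siMCRS1 in DMSO, 691, 591 and 529.8 with NTG in EPZ-6438 and 122 and 106 with siMCRS1 in EPZ-6438, and changed by -1.93 ± 0.22 (adjusted p = 8.78e-05) and -2.39 ± 0.22 (adjusted p = 1.63e-05). In the INO80 table ACADS read 362, 379.8 and 459 with NTG, 237, 331 and 308 with siINO80#1 and 196, 239.7 and 102 with siINO80#2. The decrease was called with siINO80#2 at -1.23 ± 0.27 (adjusted p = 0.00241) and not with siINO80#1 at -0.46 ± 0.27 (adjusted p = 0.192), although no siINO80#1 library overlapped the controls, and the siRNAs did not differ past the threshold (adjusted p = 0.0606). The siINO80#1 value became a call with only the groups compared (adjusted p = 0.0225), and the siRNA difference without siINO80#2 replicate B (-1.03, adjusted p = 0.0152).

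All 4 genes of the later steps were lower with both INO80 siRNAs. HADHA and HADHB encode the subunits of the trifunctional protein, which carries out the last 3 reactions on long chains. HADHA fell by 0.39 ± 0.07 and 0.78 ± 0.07 with siINO80#1 and siINO80#2, and its siMCRS1 values were -0.10 ± 0.12 (adjusted p = 0.528) and -0.08 ± 0.12 (adjusted p = 0.637), which became called decreases when totals were set equal or libraries were quantile normalized. HADHB changed by -0.55 ± 0.07 and -0.60 ± 0.07 with the INO80 siRNAs and by -0.29 ± 0.11 (adjusted p = 0.0494) and -0.38 ± 0.11 (adjusted p = 0.0149) with siMCRS1, where the DMSO call was lost without any 1 of DMSO_NTG replicates 1 and 3 and DMSO_siMCRS1 replicates 1 and 3, and the EPZ-6438 call without EPZ_siMCRS1 replicate A or B. HADH, the short-chain hydroxyacyl-CoA dehydrogenase, read 664, 665 and 724 with NTG, 479, 389 and 444 with siINO80#1 and 306, 351 and 222 with siINO80#2. Its libraries separated by group in the order NTG, siINO80#1, siINO80#2, with changes of -0.65 ± 0.15 (adjusted p = 0.0058) and -1.25 ± 0.15 (adjusted p = 5.22e-05). With siMCRS1 HADH gave -0.52 ± 0.21 (adjusted p = 0.0634) and -0.41 ± 0.21 (adjusted p = 0.123), and both became called decreases with equal totals, the first also without DMSO_NTG replicate 3 or DMSO_siMCRS1 replicate 1. ACAA2, the mitochondrial thiolase, read 2120.2, 1976 and 2274 with NTG, 1126, 1041 and 1026 with siINO80#1 and 937, 1030.0 and 761 with siINO80#2. It was lower at -0.99 ± 0.11 (adjusted p = 4.77e-05) and -1.23 ± 0.11 (adjusted p = 5.63e-06), and with siMCRS1 it gave -0.40 ± 0.14 (adjusted p = 0.0378) in DMSO and -0.22 ± 0.14 (adjusted p = 0.207) in EPZ-6438. The EPZ-6438 value became a call with equal totals (-0.46, adjusted p = 0.017) or quantile normalization (-0.48, adjusted p = 0.0162). The DMSO call of ACAA2 was lost without DMSO_NTG replicate 1 (adjusted p = 0.283) and without DMSO_siMCRS1 replicate 2 or 3.

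Peroxisomal oxidation was lower too. EHHADH, the peroxisomal bifunctional enzyme and a classical PPARA target, read 1739.9, 1565 and 1658 with NTG, 759, 602 and 684 with siINO80#1 and 454, 569.8 and 412 with siINO80#2. The changes were -1.28 ± 0.12 (adjusted p = 2.35e-05) and -1.80 ± 0.12 (adjusted p = 1.29e-06), and the groups were far apart. EHHADH in the drug table read 3181 and 3047 with NTG in DMSO, 1241, 952 and 837 with siMCRS1 in DMSO, 3246, 3386 and 3474 with NTG in EPZ-6438 and 1429 and 951 with siMCRS1 in EPZ-6438. The decreases there were -1.64 ± 0.18 (adjusted p = 7.76e-05) and -1.53 ± 0.18 (adjusted p = 7.14e-05). ACAA1, the peroxisomal thiolase, changed by -0.42 ± 0.12 (adjusted p = 0.0157) and -0.95 ± 0.12 (adjusted p = 6.17e-05) with the INO80 siRNAs. With siMCRS1 ACAA1 changed by -0.49 ± 0.18 (adjusted p = 0.0415) and -0.56 ± 0.18 (adjusted p = 0.0215). The siINO80#1 call was lost without NTG replicate C or siINO80#1 replicate A or B, the DMSO call without DMSO_NTG replicate 1 or DMSO_siMCRS1 replicate 2 or 3, and the EPZ-6438 call without EPZ_NTG replicate 1 or 2 or EPZ_siMCRS1 replicate B. ACAA1 overlaps DLEC1.

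BDH1, the ketone body dehydrogenase that makes beta-hydroxybutyrate, showed the largest decrease among oxidation genes with either INO80 siRNA. It read 656, 670.3 and 853 with NTG, 228, 220.1 and 235 with siINO80#1 and 196, 202 and 182 with siINO80#2, and the changes were -1.66 ± 0.11 (adjusted p = 2.61e-06) and -1.89 ± 0.11 (adjusted p = 5.03e-07). With siMCRS1 it went from 613 and 551 to 175, 122 and 119 in DMSO and from 719.7, 688 and 718 to 166 and 92.3 in EPZ-6438. These are changes of -2.08 ± 0.24 (adjusted p = 9.1e-05) and -2.51 ± 0.24 (adjusted p = 1.89e-05), with a wide gap between the groups.

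The regulators of the fasting programme, PPARA and CREB3L3, were lower as well. PPARA read 1454, 1375 and 1703 with NTG, 897, 909 and 949.7 with siINO80#1 and 893, 947 and 941 with siINO80#2. It changed by nearly the same amount with each siRNA, -0.71 ± 0.08 (adjusted p = 8.72e-05) and -0.70 ± 0.08 (adjusted p = 5e-05). In the drug table PPARA read 1446 and 1494 with NTG in DMSO, 924, 859 and 918 with siMCRS1 in DMSO, 1496, 2015 and 1884 with NTG in EPZ-6438 and 1142 and 1040.2 with siMCRS1 in EPZ-6438. The siMCRS1 effect of -0.71 ± 0.13 (adjusted p = 0.00119) in DMSO was matched by -0.71 ± 0.13 (adjusted p = 0.000914) in EPZ-6438. CREB3L3, a liver-enriched transcription factor of the fasting response that works with PPARA, read 618, 625 and 905 with NTG, 280.2, 241 and 331 with siINO80#1 and 298, 275 and 584 with siINO80#2. One siINO80#2 library, replicate C, stood close to the lowest controls, and the changes were -1.32 ± 0.26 (adjusted p = 0.00227) and -0.95 ± 0.26 (adjusted p = 0.00979). With siMCRS1 it read 695 and 489.6 with NTG in DMSO, 162, 105 and 105 with siMCRS1 in DMSO, 892, 1118 and 729 with NTG in EPZ-6438 and 352 and 142 with siMCRS1 in EPZ-6438, and it was lower at -2.26 ± 0.35 (adjusted p = 0.000485) and -2.00 ± 0.35 (adjusted p = 0.000753). ANGPTL4, a secreted inhibitor of lipoprotein lipase that PPARA induces, went against the group with siMCRS1 in its point estimates, 0.69 ± 0.54 (adjusted p = 0.315) and 1.17 ± 0.54 (adjusted p = 0.0884), and was not called in any knockdown comparison. With the INO80 siRNAs it gave -0.65 ± 0.48 (adjusted p = 0.311) and -0.54 ± 0.48 (adjusted p = 0.365), which became calls without NTG replicate B, and the EPZ-6438 value became one with quantile normalization or only the groups compared.

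The 3 genes of this arm below the filter were low. The floor was set at 3 reads, which covers counting error only and came to 2.13 to 4.30 normalized counts depending on the library. FGF21, the fasting hormone, stayed under that floor with values of 0 to 1.12 in all libraries. ACADL, the long-chain acyl-CoA dehydrogenase, read at most 6.72 in the INO80 table and at most 24.2 in the drug table, where it averaged 18.6 ± 5.14 with NTG in EPZ-6438 (SD, n = 3) and 3.86 ± 3.06 with siMCRS1 in DMSO (SD, n = 3). PDK4, the kinase that shuts off pyruvate dehydrogenase in fasting, was at most 4.37 in the INO80 table and in the drug table read 10.5 and 5.73 with NTG and 1.11, 2.20 and 1.43 with siMCRS1 in DMSO, and 23.7, 9.24 and 9.46 with NTG and 5.60 and 5.33 with siMCRS1 in EPZ-6438. They entered the tests only where the filter was removed. There limma called PDK4 lower with siMCRS1 in DMSO (adjusted p = 0.0286) and ACADL lower with siMCRS1 in EPZ-6438 (adjusted p = 0.0157), no other comparison was called, and no fold is given because values of both genes lay near the floor.

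Some promoters of these genes are shown, from 3 members called lower (CREB3L3, SLC25A20 and HADHA) and 1 called higher (PLIN2), because 3 of the 4 hold a motif that regulators of lipid genes bind. RefSeq promoter sequences (GRCh38.p14, 250 bases before to 50 after the gene start) were matched by symbol for 41 of the 47 genes. FASN, DGAT1, DGAT2, PNPLA3, EHHADH and ACAA1 had no matched sequence and were not searched. Both strands were searched for the sterol element TCACNCCA bound by SREBPs, the E-box CACGTG, the CCAAT box, and a PPAR element of 2 copies of AGGNCA separated by 1 base. The 250 bases before the start are printed 5′ to 3′ on the gene's strand, with matches in capitals.

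CREB3L3 (chr19:4153381-4153630, plus strand): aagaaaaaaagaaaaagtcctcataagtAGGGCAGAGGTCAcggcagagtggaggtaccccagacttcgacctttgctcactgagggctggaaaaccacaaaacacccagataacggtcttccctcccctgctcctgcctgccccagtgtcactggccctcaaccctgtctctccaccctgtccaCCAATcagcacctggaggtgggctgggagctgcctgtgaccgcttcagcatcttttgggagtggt

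SLC25A20 (chr3:48898883-48899132, minus strand): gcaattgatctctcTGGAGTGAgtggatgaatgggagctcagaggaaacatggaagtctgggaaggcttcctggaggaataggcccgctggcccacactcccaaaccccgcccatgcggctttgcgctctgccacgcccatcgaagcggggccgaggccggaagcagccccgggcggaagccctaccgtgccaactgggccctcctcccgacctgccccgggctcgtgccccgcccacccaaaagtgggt

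HADHA (chr2:26244633-26244882, minus strand): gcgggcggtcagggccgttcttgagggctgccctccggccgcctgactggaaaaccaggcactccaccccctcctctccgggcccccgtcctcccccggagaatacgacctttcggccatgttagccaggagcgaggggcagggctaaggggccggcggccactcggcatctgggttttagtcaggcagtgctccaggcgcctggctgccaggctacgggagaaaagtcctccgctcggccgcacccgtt

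PLIN2 (chr9:19127493-19127742, minus strand): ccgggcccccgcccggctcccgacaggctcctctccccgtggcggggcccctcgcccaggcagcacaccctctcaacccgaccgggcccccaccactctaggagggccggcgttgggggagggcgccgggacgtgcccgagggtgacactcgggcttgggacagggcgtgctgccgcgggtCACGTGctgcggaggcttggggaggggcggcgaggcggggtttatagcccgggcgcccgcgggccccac

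In CREB3L3 the PPAR element starts 222 bases and a CCAAT box 65 bases before the gene start. It was the only one of the 41 with a PPAR element (2.44%, against 0.308% of 27305 promoters of the same length). A sterol element occurred in 4 of 41 (9.76%, against 3.93%), in PNPLA2, SLC25A20, ACADVL and ACAA2. None of the 15 synthesis promoters searched held one, and FASN was not among those searched. The E-box occurred in ELOVL5 and PLIN2 (4.88%, against 7.43%) and a CCAAT box in 11 (26.8%, against 35.7%). HADHA and HADHB start on opposite strands with 306 bases between them, and the HADHA stretch shown lies within that interval. A match is a description of the letters and shows no binding.

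Among the regulators of synthesis the 2 main factors separated. MLXIPL was called lower in all 4 knockdown comparisons and SREBF1 in 1 of them. MLXIPL read 1709.8, 1518 and 1971 with NTG, 882, 698 and 899 with siINO80#1 and 468, 599.7 and 643 with siINO80#2. The changes were -1.07 ± 0.14 (adjusted p = 0.000197) and -1.61 ± 0.14 (adjusted p = 6.68e-06), and all knockdown libraries were below the controls. With siMCRS1 MLXIPL read 1500.3 and 1819 with NTG in DMSO, 362, 204 and 318 with siMCRS1 in DMSO, 1693, 1800.2 and 2595 with NTG in EPZ-6438 and 401 and 186 with siMCRS1 in EPZ-6438. The siMCRS1 changes were -2.52 ± 0.32 (adjusted p = 0.000162) and -2.86 ± 0.32 (adjusted p = 5.09e-05).

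SREBF1 read 1038, 1185 and 1062 with NTG, 1357, 1644 and 1766 with siINO80#1 and 1034, 1337 and 1171 with siINO80#2. It was higher with siINO80#1 at 0.53 ± 0.12 (adjusted p = 0.00424), while siINO80#2 gave 0.10 ± 0.12 (adjusted p = 0.48) with overlapping libraries. The siRNAs differed from each other by -0.43 ± 0.12 (adjusted p = 0.0253). That call was lost with only the groups compared and without siINO80#2 replicate A or siINO80#1 replicate B or C. The drug table had SREBF1 at 894 and 975 with NTG in DMSO, 792, 825 and 901 with siMCRS1 in DMSO, 798, 1349 and 1166 with NTG in EPZ-6438 and 725 and 619.5 with siMCRS1 in EPZ-6438. It was lower with siMCRS1 in EPZ-6438 at -0.69 ± 0.19 (adjusted p = 0.0104), a call lost without EPZ_siMCRS1 replicate B (adjusted p = 0.0922), and not called in DMSO at -0.16 ± 0.19 (adjusted p = 0.528). The effects in the treatments did not differ past the threshold, with an interaction of -0.53 ± 0.27 (95% interval -1.12 to 0.06, adjusted p = 1.0). SREBF1 overlaps RAI1.

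**Figure D4:**
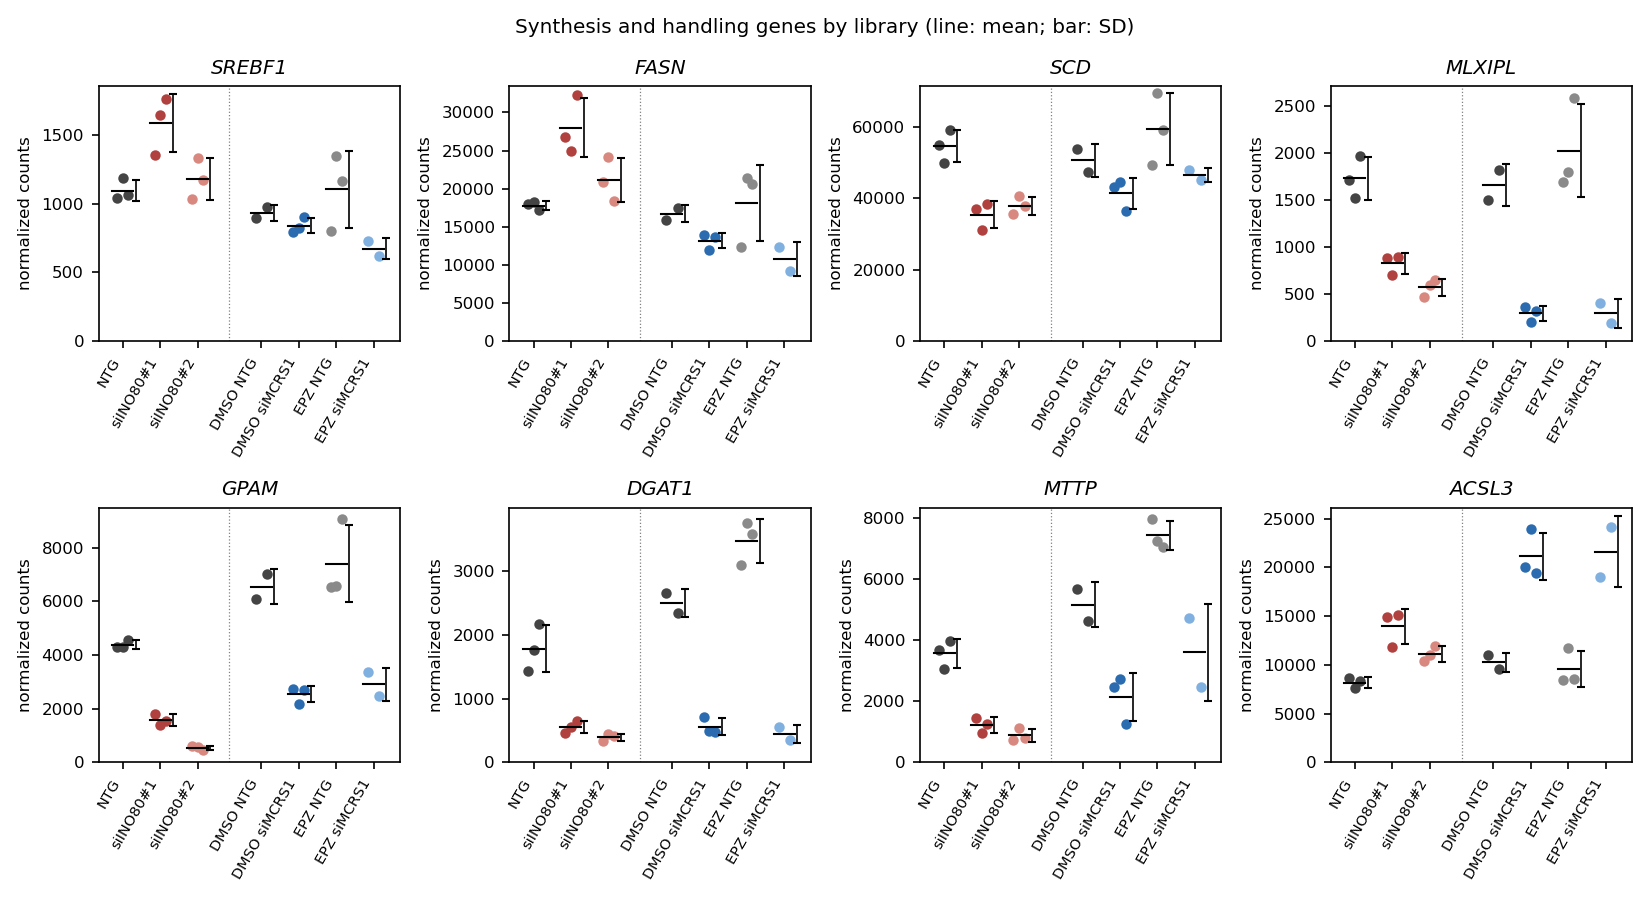
Normalized counts of 8 synthesis and handling genes in every library (points, linear axes from 0), with the mean (line) and SD (bar) of each group; the dotted line separates the tables. MLXIPL, GPAM, DGAT1 and MTTP sit below their controls with every knockdown siRNA, ACSL3 sits above, and FASN is highest with siINO80#1 in its table.

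FASN, the multienzyme that builds palmitate, followed SREBF1 in its calls. It read 17939, 18224 and 17137 with NTG, 26826, 24947 and 32294 with siINO80#1 and 20806, 24158 and 18407 with siINO80#2. The increase was called with siINO80#1 at 0.65 ± 0.12 (adjusted p = 0.00151) and not with siINO80#2 at 0.24 ± 0.12 (adjusted p = 0.113). The siINO80#2 value became a call without siINO80#2 replicate C (0.34, adjusted p = 0.0266). The siRNAs differed by -0.41 ± 0.12 (adjusted p = 0.0341). That call was lost with equal totals, with no filter or only the groups compared, and without siINO80#1 replicate A or C or siINO80#2 replicate A or C. With the drug and its vehicle FASN read 15939 and 17488 with NTG in DMSO, 13914, 11996 and 13623 with siMCRS1 in DMSO, 12377, 21452 and 20573 with NTG in EPZ-6438 and 12369 and 9222 with siMCRS1 in EPZ-6438. It was lower with siMCRS1 in EPZ-6438 at -0.72 ± 0.21 (adjusted p = 0.0154), lost without EPZ_NTG replicate 2 or 3 or EPZ_siMCRS1 replicate B, and gave -0.34 ± 0.21 (adjusted p = 0.21) in DMSO, which became a call with equal totals or quantile normalization. ACLY, which makes cytosolic acetyl-CoA, and ACACA, the cytosolic acetyl-CoA carboxylase, were called lower with siINO80#2 and in no other knockdown against NTG, at -0.29 ± 0.09 and -0.31 ± 0.08.

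ACACB differed from its paralogue ACACA. It encodes the carboxylase at the mitochondrial surface, whose product malonyl-CoA inhibits CPT1. ACACB read 586, 499 and 568 with NTG, 329, 256 and 302 with siINO80#1 and 238, 290.3 and 270.2 with siINO80#2. It was lower with both siRNAs, at -0.90 ± 0.12 (adjusted p = 0.000191) and -1.05 ± 0.12 (adjusted p = 3.51e-05). With siMCRS1 it read 509 and 574 with NTG in DMSO, 195, 144 and 162 with siMCRS1 in DMSO, 458, 741 and 664 with NTG in EPZ-6438 and 164 and 113 with siMCRS1 in EPZ-6438, with changes of -1.70 ± 0.23 (adjusted p = 0.000231) and -2.15 ± 0.23 (adjusted p = 3.88e-05). The ACACA intervals were -0.31 to 0.27 in DMSO and -0.16 to 0.43 in EPZ-6438 (95%), so a decrease of that size lay outside them.

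Of the desaturases, SCD, which makes oleate, responded to the INO80 siRNAs. It read 54971, 49996 and 59068 with NTG, 37011, 30966 and 38246 with siINO80#1 and 35504, 40526 and 37701 with siINO80#2, with changes of -0.63 ± 0.11 (adjusted p = 0.00127) and -0.53 ± 0.11 (adjusted p = 0.00241) and no overlap with the controls. In the drug table it read 53882 and 47383 with NTG in DMSO, 43055, 44636 and 36426 with siMCRS1 in DMSO, 49410.3, 69530.4 and 58985 with NTG in EPZ-6438 and 47909.8 and 45112 with siMCRS1 in EPZ-6438, and the changes of -0.29 ± 0.15 (adjusted p = 0.136) and -0.34 ± 0.15 (adjusted p = 0.0844) became calls with equal totals or quantile normalization. FADS1, the delta-5 desaturase of polyunsaturated fatty acids, read 4285, 3799 and 3969 with NTG, 3121, 2592 and 3056 with siINO80#1 and 1797, 2228 and 1768 with siINO80#2. The changes were -0.46 ± 0.10 (adjusted p = 0.00499) and -1.06 ± 0.10 (adjusted p = 1.3e-05), and FADS1 was lower with siINO80#2 than with siINO80#1 at -0.60 ± 0.10 (adjusted p = 0.00305). With siMCRS1 it read 5693 and 4919.6 with NTG in DMSO, 2683, 2127 and 2053 with siMCRS1 in DMSO, 5835, 6909.6 and 5817 with NTG in EPZ-6438 and 3269 and 2199 with siMCRS1 in EPZ-6438, with -1.22 ± 0.17 (adjusted p = 0.00029) and -1.20 ± 0.17 (adjusted p = 0.000225). FADS2, the delta-6 desaturase next to it, whose annotated span overlaps that of FADS1, was called lower only with siMCRS1, at -0.76 ± 0.24 and -0.83 ± 0.24. These FADS2 calls were lost without DMSO_NTG replicate 1 or DMSO_siMCRS1 replicate 2 or 3, and without EPZ_siMCRS1 replicate B.

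The elongases gave small and mixed changes. ELOVL6, which extends palmitate to stearate, was higher with siINO80#1 at 0.43 ± 0.12 (adjusted p = 0.0132) and lower with siINO80#2 at -0.30 ± 0.12 (adjusted p = 0.0485). The increase was lost with equal totals or without siINO80#1 replicate A, and the decrease with quantile normalization, with edgeR, with no filter or only the groups compared, without any 1 of the NTG libraries and without siINO80#2 replicate A or C. The siRNAs differed by -0.74 ± 0.12 (adjusted p = 0.00201). ELOVL2 was lower with both INO80 siRNAs at -0.41 ± 0.10 and -0.37 ± 0.10. With siMCRS1 ELOVL2 was not called in DMSO or EPZ-6438. It became a called decrease in both with equal totals (-0.53 and -0.34) or quantile normalization (-0.57 and -0.41), and in DMSO also with edgeR (-0.30). ELOVL1 was higher with siINO80#2 at 0.43 ± 0.10 (adjusted p = 0.00379). ELOVL5 was higher with siINO80#2 at 0.28 ± 0.07 (adjusted p = 0.00681) and with siMCRS1 in EPZ-6438 at 0.30 ± 0.10 (adjusted p = 0.0225), and both calls were lost with equal totals. The EPZ-6438 value turned to -0.020 after quantile normalization and lost its call without EPZ_NTG replicate 3 or EPZ_siMCRS1 replicate B.

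Triglyceride assembly held the largest decrease of all members. GPAM, the mitochondrial acyltransferase of the first step of glycerolipid synthesis, read 4298, 4291 and 4573 with NTG, 1806, 1377 and 1528 with siINO80#1 and 599, 579.7 and 456 with siINO80#2. It fell by 1.49 ± 0.12 with siINO80#1 and by 3.02 ± 0.12 with siINO80#2 on the log2 scale (adjusted p = 7.25e-06 and 1.02e-07), and the siRNAs differed by -1.53 ± 0.12 (adjusted p = 5.04e-05). GPAM in the drug table read 6088 and 7011 with NTG in DMSO, 2734, 2193 and 2680.0 with siMCRS1 in DMSO, 6559, 6588 and 9076 with NTG in EPZ-6438 and 3351 and 2457 with siMCRS1 in EPZ-6438, with -1.37 ± 0.18 (adjusted p = 0.000166) and -1.35 ± 0.18 (adjusted p = 0.000121). DGAT1, which adds the last acyl group, read 1438, 1753 and 2162 with NTG, 464, 546 and 652 with siINO80#1 and 329.8, 437 and 417 with siINO80#2. Its changes of -1.68 ± 0.17 (adjusted p = 2.98e-05) and -2.17 ± 0.17 (adjusted p = 2.73e-06) left the groups far apart. With siMCRS1 it read 2652 and 2349 with NTG in DMSO, 711, 485 and 471 with siMCRS1 in DMSO, 3089.9, 3759 and 3573 with NTG in EPZ-6438 and 550.4 and 349 with siMCRS1 in EPZ-6438, with -2.19 ± 0.21 (adjusted p = 3.84e-05) and -2.98 ± 0.21 (adjusted p = 5.94e-06). DGAT1 overlaps HSF1. DGAT2, the unrelated enzyme of the same reaction, gave smaller values, with -0.32 ± 0.11 (adjusted p = 0.0379) and -0.42 ± 0.11 (adjusted p = 0.00829) for the INO80 siRNAs, and 0.05 ± 0.20 and 0.01 ± 0.20 for siMCRS1. The siINO80#1 call of DGAT2 was lost without NTG replicate B or C or siINO80#1 replicate A or B. The lipins LPIN1 and LPIN2, phosphatases of the step before, had calls in the other direction. LPIN2 was higher in all 4 comparisons, at 0.42 ± 0.07, 0.63 ± 0.07, 0.44 ± 0.11 and 0.47 ± 0.11, where both siMCRS1 calls were lost with equal totals or quantile normalization and the EPZ-6438 call also without EPZ_siMCRS1 replicate B. LPIN1 was called higher with the INO80 siRNAs and not with siMCRS1, by 0.24 ± 0.06 and 0.23 ± 0.06, and neither held with equal totals or, for siINO80#1, without NTG replicate A.

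Among the handling genes the droplet coat and the lipases went different ways. PLIN2, the droplet coat protein of hepatocytes, was higher with siINO80#1 at 0.60 ± 0.16 (adjusted p = 0.0122) and with siMCRS1 at 0.59 ± 0.18 (adjusted p = 0.0195) in DMSO and 0.97 ± 0.18 (adjusted p = 0.00106) in EPZ-6438. Its DMSO call was lost with equal totals (0.35, adjusted p = 0.085) or quantile normalization (0.29, adjusted p = 0.124), and without DMSO_NTG replicate 3 or DMSO_siMCRS1 replicate 1 or 2. With siINO80#2 it gave 0.41 ± 0.16 (adjusted p = 0.0503), which passed with a pseudocount of 5, with a filter at a mean of 50, and without NTG replicate A or siINO80#2 replicate C. PLIN5, the coat protein that tethers droplets to mitochondria, was between -0.85 ± 0.38 and -0.62 ± 0.33 over the INO80 and siMCRS1 comparisons with no call. PNPLA3, a lipid droplet protein of hepatocytes, read 704, 719 and 832 with NTG, 346, 289 and 346 with siINO80#1 and 271, 312 and 214 with siINO80#2. It was lower at -1.20 ± 0.14 (adjusted p = 8.27e-05) and -1.51 ± 0.14 (adjusted p = 8.85e-06), with all knockdown libraries below the controls. In the drug table it read 579 and 533 with NTG in DMSO, 229, 173 and 183 with siMCRS1 in DMSO, 624, 850.4 and 825 with NTG in EPZ-6438 and 294 and 215 with siMCRS1 in EPZ-6438, with -1.51 ± 0.19 (adjusted p = 0.000159) and -1.59 ± 0.19 (adjusted p = 7.81e-05). PNPLA2, the adipose triglyceride lipase, was called lower with siMCRS1 and not with the INO80 siRNAs. It read 1499 and 1189 with NTG in DMSO, 820.2, 760.0 and 738 with siMCRS1 in DMSO, 1317, 2147 and 1394 with NTG in EPZ-6438 and 702 and 664 with siMCRS1 in EPZ-6438, with -0.79 ± 0.19 (adjusted p = 0.00601), lost without DMSO_NTG replicate 1, and -1.21 ± 0.19 (adjusted p = 0.000387), against -0.20 ± 0.16 (adjusted p = 0.348) and -0.37 ± 0.16 (adjusted p = 0.0708) with the INO80 siRNAs. The siINO80#2 value became a call with equal totals (adjusted p = 0.0206), with the replicate letter as a block (adjusted p = 0.00989) and without siINO80#2 replicate C (adjusted p = 0.0111).

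MTTP, the transfer protein that loads triglyceride onto apolipoprotein B for export, read 3681, 3049 and 3966 with NTG, 1462, 956 and 1249.7 with siINO80#1 and 744, 1131 and 786 with siINO80#2. The changes of -1.56 ± 0.18 (adjusted p = 8.46e-05) and -2.02 ± 0.18 (adjusted p = 7.39e-06) were the largest decreases of the handling genes in the INO80 table. In the drug table it read 5677 and 4632 with NTG in DMSO, 2466, 2727 and 1249 with siMCRS1 in DMSO, 7973, 7236 and 7058 with NTG in EPZ-6438 and 4723 and 2469 with siMCRS1 in EPZ-6438, with -1.33 ± 0.32 (adjusted p = 0.00577), lost without DMSO_NTG replicate 1, and -1.12 ± 0.32 (adjusted p = 0.0125), lost without EPZ_siMCRS1 replicate B. FABP1, the abundant fatty acid binding protein of hepatocytes, read 10114, 5814 and 10464 with NTG, 4056, 2028 and 3662 with siINO80#1 and 1750.0, 4293 and 1713 with siINO80#2. Its libraries varied widely within groups, and the changes were -1.45 ± 0.37 (adjusted p = 0.00996) and -1.86 ± 0.37 (adjusted p = 0.00162). With siMCRS1 it read 4318 and 3645 with NTG in DMSO, 3166, 2271 and 1093 with siMCRS1 in DMSO, 5829.6, 9123 and 6624 with NTG in EPZ-6438 and 4129.6 and 2995 with siMCRS1 in EPZ-6438, with -0.996 ± 0.36 (adjusted p = 0.0402) and -1.01 ± 0.36 (adjusted p = 0.0348). The DMSO call of FABP1 was lost without either DMSO_NTG library, without DMSO_siMCRS1 replicate 2 or 3 and with edgeR (adjusted p = 0.0518), and the EPZ-6438 call without EPZ_NTG replicate 2 or 3 or EPZ_siMCRS1 replicate B.

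The acyl-CoA synthetases activate fatty acids for either fate. ACSL1, ACSL3 and ACSL5 were called higher in all 4 knockdown comparisons. ACSL1, the main hepatic form, read 1646 and 1953 with NTG in DMSO, 3761, 5945 and 4678 with siMCRS1 in DMSO, 2292, 2381 and 2569 with NTG in EPZ-6438 and 5796 and 6961 with siMCRS1 in EPZ-6438 in the drug table. The siMCRS1 changes were 1.39 ± 0.17 (adjusted p = 0.000125) and 1.40 ± 0.17 (adjusted p = 8.01e-05). With the INO80 siRNAs ACSL1 changed by 0.32 ± 0.09 (adjusted p = 0.016) and 0.24 ± 0.09 (adjusted p = 0.0399), and both calls were lost with equal totals or without NTG replicate A, the first also without siINO80#1 replicate B or C and the second without siINO80#2 replicate A or B. ACSL3, a form found on nascent droplets, read 10970.1 and 9578 with NTG in DMSO, 20002, 23917 and 19467 with siMCRS1 in DMSO, 8469, 11746 and 8558 with NTG in EPZ-6438 and 19049 and 24205 with siMCRS1 in EPZ-6438, with 1.04 ± 0.17 (adjusted p = 0.00057) and 1.18 ± 0.17 (adjusted p = 0.000191), and was higher at 0.76 ± 0.10 and 0.44 ± 0.10 with the INO80 siRNAs. ACSL5 was higher at 0.37 ± 0.07, 0.88 ± 0.07, 0.83 ± 0.13 and 0.88 ± 0.13. ACSL5 overlaps ZDHHC6. ACSL4, which prefers arachidonate, was lower with siINO80#2 at -0.61 ± 0.11 (adjusted p = 0.00064) and higher with siMCRS1 at 0.48 ± 0.09 (adjusted p = 0.00185) and 0.58 ± 0.09 (adjusted p = 0.000441), where equal totals ended the DMSO call and quantile normalization both.

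The INO80 siRNAs differed from each other at 15 of the 44 genes, with 2 higher and 13 lower with siINO80#2, where 9.48% and 12.6% of all genes were higher and lower. The lower genes included 7 of synthesis and 4 of oxidation (HADHA, HADH, EHHADH and ACAA1). The EHHADH call was lost without siINO80#1 replicate A and the HADH call without siINO80#1 replicate A or C. The higher genes were ELOVL5 and ACSL5, of which ELOVL5 was lost with equal totals or without any 1 of the siINO80#1 libraries or siINO80#2 replicates A and C, and without siINO80#2 replicate B there were 3. The count of lower genes was 7 without siINO80#1 replicate A or C and 17 without siINO80#2 replicate B. The shares of all genes called in those fits are not given here, so the shifts are no result about the members. The INO80 transcript itself was lower with siINO80#2 than with siINO80#1, at -0.40 ± 0.08 (adjusted p = 0.00577). Of the called genes GPAM, ACSL4 and ELOVL6 differed most between the siRNAs, at -1.53 ± 0.12, -0.84 ± 0.11 and -0.74 ± 0.12, whereas CPT1A, CPT2 and PPARA differed by 0.07 ± 0.16, 0.03 ± 0.13 and 0.01 ± 0.08, with 95% intervals of -0.28 to 0.42, -0.25 to 0.30 and -0.17 to 0.20.

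The INO80 and siMCRS1 comparisons share no library. Of the 24 genes lower with siINO80#1, 19 were also lower with siMCRS1 in DMSO (79.2% of the first list and 82.6% of the second), where among all genes the shares were 63.4% and 53.9%. Of the 29 genes lower with siINO80#2, 20 were (69.0% and 87.0%, against 55.2% and 64.1%). The 19 comprised CPT1A, CPT2, SLC25A20, ACADM, HADHB, ACAA2, EHHADH, ACAA1, BDH1, PPARA and CREB3L3 of oxidation, MLXIPL, ACACB, FADS1, GPAM and DGAT1 of synthesis, and PNPLA3, MTTP and FABP1 of handling. Of the genes higher with siINO80#1 and with siMCRS1 in DMSO, ACSL1, ACSL3, ACSL5, LPIN2 and PLIN2 were common (55.6% of 9 and 83.3% of 6, against 65.1% and 58.0% among all genes). No member was called in opposite directions in that pair, where 223 of the 13534 genes tested in both tables were. ACSL4 was for siINO80#2 with siMCRS1 in either treatment, where 363 of all genes were in DMSO and 611 in EPZ-6438. SREBF1 and FASN were for siINO80#1 with siMCRS1 in EPZ-6438, where 335 of all genes were.

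EPZ-6438 alone gave no member a call in the fit of all groups. In NTG cells limma called 0 of 44 higher or lower, where 0.321% of all genes were higher and 0.0629% lower, and in siMCRS1 cells 0 of 44, where 0.0838% were higher and 0.00699% lower. At an unadjusted p under 0.05 there were 7 members in NTG and 7 in siMCRS1. The share of all genes at that level is not given here, so these counts are no result about the members. With edgeR 0 members were called in both. With the column numbers of the drug table as a block, chosen after seeing the data, 1 member was called higher in NTG (CPT1A at 0.46, adjusted p = 0.03) and 3 lower (PLIN2 at -0.52, ACSL5 at -0.43 and LPIN2 at -0.31), where 3.42% and 4.69% of all genes were. FABP1 had the largest point estimates in NTG, at 0.83 ± 0.36 (adjusted p = 0.27), and in siMCRS1 CREB3L3 did, at 0.88 ± 0.35 (adjusted p = 0.466). CPT1A was at 0.42 ± 0.14 (adjusted p = 0.185) and 0.34 ± 0.14 (adjusted p = 0.49). All 3 EPZ-6438 NTG libraries lay above the DMSO NTG libraries, but how often other genes separated in this way was not counted. PPARA was at 0.28 ± 0.13 (adjusted p = 0.299) and 0.28 ± 0.13 (adjusted p = 0.569). MLXIPL, GPAM and SCD had 95% intervals in NTG of -0.44 to 0.98, -0.23 to 0.55 and -0.12 to 0.55, so changes of the size that siMCRS1 gave at MLXIPL and GPAM lay outside them.

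The siMCRS1 effects under vehicle and drug were set against each other, since these comparisons share no library. Across the 44 genes the log2 fold changes in DMSO and EPZ-6438 had a Pearson r of 0.976 (0.888 over all 14312 genes), and 41 had the same sign (93.2%, against 88.4% of all genes). Genes in 1 fit share its libraries and are not independent. In both treatments 22 genes were called lower (50.0%, against 22.0% of all genes) and 6 higher (13.6%, against 20.8%). The interaction test called 0 of 44 members and 0% of all genes in either direction, and edgeR called 0 members. At an unadjusted p under 0.05 there was 1 member, where the share of all genes is not given here. That member was DGAT1, at -0.79 ± 0.30 (adjusted p = 1.0) with a 95% interval of -1.45 to -0.12, where DGAT1 fell by 2.19 in DMSO and by 2.98 in EPZ-6438.

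**Figure D5:**
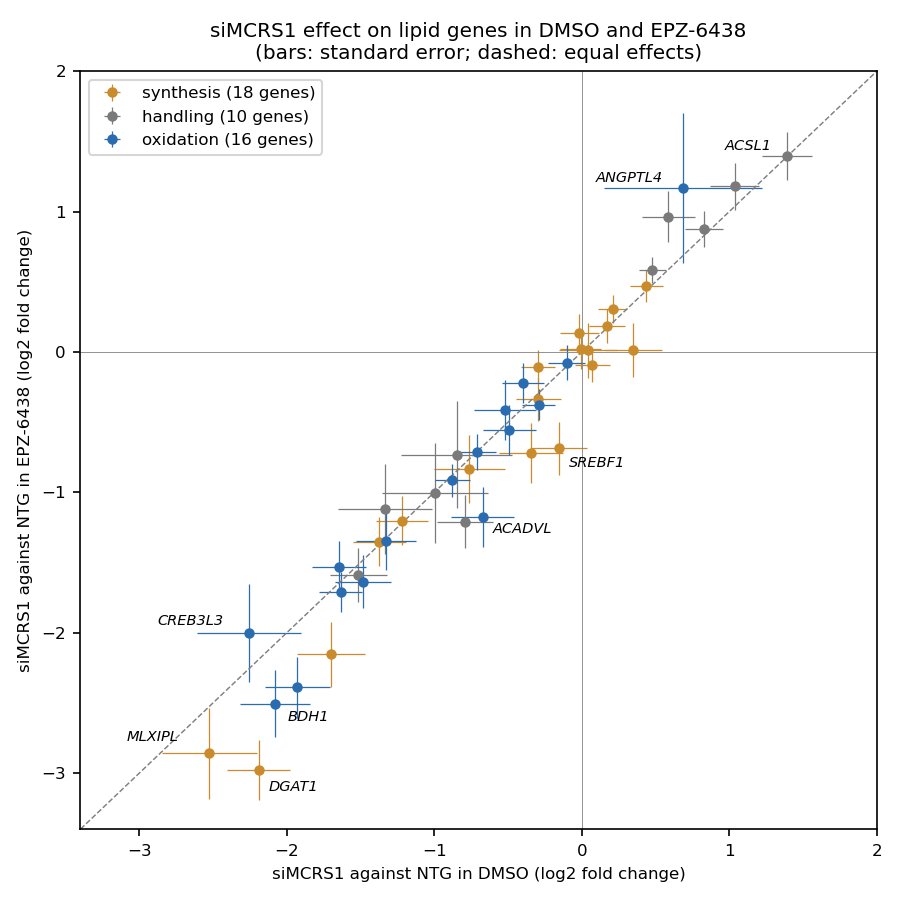
Log2 fold change with siMCRS1 against NTG in DMSO (x axis) and in EPZ-6438 (y axis) for the 44 tested genes, with standard errors as bars and the line of equal effects dashed. The points lie along the line (Pearson r = 0.976), oxidation genes are below 0 on both axes except ANGPTL4, and the ACSL genes are at the upper right.

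Other genes of the same pathways, from a list of 31 synthesis and 38 oxidation genes, were counted in the same way. Of the oxidation genes, 24 were lower and 2 higher of 37 tested with siINO80#1, 30 and 2 with siINO80#2, and of 36 tested 23 and 3 with siMCRS1 in DMSO and again 23, with 2 higher, in EPZ-6438. The lower calls were 64.9%, 81.1%, 63.9% and 63.9% of those tested, against 20.8%, 28.4%, 24.6% and 26.9% of all genes. Their median log2 fold changes were -0.47, -0.83, -0.77 and -0.73. ACAD11, an acyl-CoA dehydrogenase, was among the 3 largest decreases in each, at -1.89 ± 0.12, -2.05 ± 0.12, -2.18 ± 0.19 and -2.18 ± 0.19. CD36 and SLC27A2, which take up and activate fatty acids, were lower with siINO80#2 at -2.19 ± 0.16 and -1.96 ± 0.15. CPT1B, the muscle form of the shuttle enzyme, was lower with siMCRS1 at -3.29 ± 0.60 and -4.14 ± 0.60, and MLYCD, which breaks down malonyl-CoA, at -2.21 ± 0.20 and -2.30 ± 0.20. PPARGC1B, a coactivator of mitochondrial genes, was higher in all 4, from 0.44 ± 0.14 with siINO80#1 to 0.68 ± 0.24 with siMCRS1 in EPZ-6438. PPARD, the paralogue of PPARA, was higher with both INO80 siRNAs at 0.72 ± 0.10 and 0.90 ± 0.10 and with siMCRS1 in DMSO at 0.85 ± 0.18. VNN1, a PPARA-responsive pantetheinase, was the 1 listed gene that EPZ-6438 changed, higher in siMCRS1 cells at 1.47 ± 0.22 (adjusted p = 0.0411).

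Of the 25 other synthesis genes tested, 7 were higher and 9 lower with siINO80#1, 7 and 13 with siINO80#2, 6 and 11 with siMCRS1 in DMSO, and 8 and 11 in EPZ-6438. The higher calls were 28%, 28%, 24% and 32% of those tested, against 20.7%, 26.6%, 23.1% and 26.8% of all genes, and the lower calls 36%, 52%, 44% and 44%, against 20.8%, 28.4%, 24.6% and 26.9%. CIDEC, which fuses droplets, had the largest decrease in each, from -1.20 ± 0.14 with siINO80#1 to -2.97 ± 0.39 with siMCRS1 in EPZ-6438. ELOVL7, a long-chain elongase, had the largest increase in each, at 1.82 ± 0.15, 1.78 ± 0.15, 1.78 ± 0.19 and 1.81 ± 0.19. NR1H3, which encodes the sterol receptor LXR alpha that induces SREBF1, was lower with siMCRS1 at -1.65 ± 0.26 and -1.90 ± 0.26. GPAT3 and GPAT4, the acyltransferases of the endoplasmic reticulum that act at the same step as GPAM, were higher with siMCRS1, at 1.31 ± 0.24 and 0.98 ± 0.10 in DMSO.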

How the data were processed

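mRNA libraries were made with a Kapa stranded mRNA kit. For each experiment the authors deposited a table of a normalized signal per gene symbol, in which the counts of a library had been divided by its size factor. The submitters' processing notes name kallisto, DESeq2 and GRCh38, without versions in the sources used here. The study's text does not describe these libraries. Dividing by the smallest step of a library gave whole numbers within 0.1, taken as reads, for 100% of the values.

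Groups came from the sample labels. The members, gene lists and tests were chosen with earlier results of these data known. Values were fitted as log2(value + 1) with limma 3.58.1 in R 4.3.3 (lmFit, eBayes with a trend, all groups of a table in 1 fit). Genes with a mean of at least 10 were tested, with Benjamini-Hochberg adjustment over all of them. Alternatives were pseudocounts of 0.1 and 5, no filter or a mean of at least 50, equal totals, quantile normalization, only the groups compared, each library left out, the replicate letter or, added after seeing the data, the column number as a block, and edgeR 4.0.16 quasi-likelihood tests on the recovered reads. Both fits were tested on simulated data. One gene of the hepatocyte marker list is not reported here and was left out of its counts and sums. Per-library values are given for members with a mean of at least 50 and a called change of at least 1 (log2) in that table, and always for SREBF1, MLXIPL, FASN, SCD, PPARA and CPT1A; of other pathway genes at most the 3 largest called changes in each direction were named. Promoters and gene spans are from RefSeq (GRCh38.p14). Figures were drawn with matplotlib 3.10.9 in Python 3.11.15.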

Additional observations from a re-analysis of the deposited data

How the results depend on the processing

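Counts of genes called higher or lower stayed within 1.5 times the reported count in all alternatives for siINO80#1 and for siMCRS1 in EPZ-6438, and for the genes lower with siINO80#2, and the counts for EPZ-6438 in siMCRS1 cells and for the interaction stayed at 0, as did those for EPZ-6438 in NTG cells other than with the block on column numbers. With equal totals the higher genes numbered 4 with siINO80#2, 3 with siMCRS1 in DMSO and 1 for siINO80#2 against siINO80#1. Over all genes equal totals also cut the higher calls, from 3733 to 2856, from 3307 to 1894 and from 1330 to 1029 in the same order. Quantile normalization gave 3 with siMCRS1 in DMSO, and no filter or only the groups compared gave 1 for siINO80#2 against siINO80#1. Leaving out 1 library gave 1 to 3 higher and 7 to 17 lower genes for siINO80#2 against siINO80#1. With siMCRS1 in DMSO the lower genes were fewer without DMSO_NTG replicate 1, a fit that leaves the control group without a replicate. The cause was not tested. ELOVL5 with siMCRS1 in EPZ-6438 turned from 0.30 to -0.020 with quantile normalization.

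In the INO80 table deviations from the group means correlated at 0.10 on average between libraries of the same letter (range -0.08 to 0.26, 9 pairs). The mean of the other pairs (-0.05, 18 pairs) is no separate contrast. Deviations cancel within a group, so a positive same-letter mean makes it negative. Of 9 libraries 8 correlated best with their own letter. The same-letter correlations are a hint of a shared letter effect from the data, but not every such pair was above 0.1. The labels name no shared batch, so the letters were not taken as pairs. The replicate block gave 9 higher and 24 lower genes with siINO80#1, 8 and 29 with siINO80#2, and 3 and 15 between the siRNAs. With siINO80#2 it gained PLIN2 (adjusted p = 0.0439) and PNPLA2 (0.00989) and lost ELOVL6 (0.0557), and between the siRNAs it gained DGAT1, ACACA and LPIN2. Numbers stand in 8 column names of the drug table. Same-number pairs correlated at 0.21 on average (range -0.02 to 0.30, 7 pairs). The mean of the other pairs (-0.10, 14 pairs) follows from that value in the same way. A replicate block on the column numbers over the 8 columns, added after seeing the data, gave 7 higher and 26 lower genes with siMCRS1 in DMSO (6 and 22 in the same columns without it) and 1 higher and 3 lower for EPZ-6438 in NTG (0 and 0 without it). The shares of all genes called moved with the setting as well. For higher calls with siINO80#1 they were 20.7% in the main fit, 22.5% with the replicate block and 15.4% with equal totals. Gains and losses of member calls between settings are therefore not results about the members. No paired analysis was possible for siMCRS1 in EPZ-6438 because its columns carry letters and those of its controls numbers.

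Groups of 2 or 3 libraries and 17093574 reads in the shallowest library limit what small changes and low genes can show.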
